A study of Arabidopsis thaliana with 3 samples.

Results

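The short arms of Arabidopsis thaliana chromosomes 4 and 2 each end in a nucleolus organiser, a long tandem array of the ribosomal RNA genes from which the nucleolus forms. LDL1:GFP regions on these arms were taken as those whose midpoint lies in the first 2 Mb of either chromosome. Distance is counted from the start of the assembled sequence, which is called the tip here. They numbered 391 of 5928 regions in the series (6.60%), with 230 on the chromosome 4 arm and 161 on the chromosome 2 arm. The gene table places rRNA genes only on the chromosome 2 arm, where 2 of the 4 nuclear rRNA genes lie. The arrays themselves are known to be largely missing from the TAIR10 assembly, on which all positions here are given. The tip of these arms is thus the end of the assembled sequence and not the physical end of the chromosome. Distances on these 2 arms are therefore not distances from a telomere, and may not be like distances at the other chromosome ends. At the inner boundary of chromosome 4, the last region inside was centred at 1.991 Mb and the first outside at 2.004 Mb. On chromosome 2 these midpoints were 1.997 Mb and 2.004 Mb.

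Chromatin came from Col-0 seedlings aged 14 days, grown under long days at 22 °C, with a transgene in which the promoter of LDL1 drives an LDL1 fusion to GFP (green fluorescent protein). The ChIP group, precipitated with an anti-GFP antibody, has 2 libraries, each built on DNA pooled from several precipitations, and the input group has 1 library of the same line. A single set of coordinates stands for the ChIP group and another for the input, without score, read count or replicate, so no value below has a replicate error and no test between the arms is given. Exact 95% intervals are given in places, Poisson for counts and Clopper-Pearson for shares. They cover counting error only, and neighbouring regions are not independent of each other. ChIP depth is unknown, and a library of plants without the tag was not analysed here.

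LDL1 is a plant relative of the animal histone demethylase LSD1, an enzyme that removes methyl groups from lysine 4 of histone H3. In plants it is known as a repressor that works with histone deacetylases, among others at the flowering repressor FLC. Arrays of rRNA genes are partly silent and partly active, and in Col-0 the array of chromosome 2 is known to be silenced during development while that of chromosome 4 stays active. The short arm of chromosome 4 in Col-0 also carries a heterochromatic knob, a block of transposon-rich sequence away from the centromere.

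Both arms held more LDL1:GFP regions than any other chromosome end. Density was 115 regions per Mb on the chromosome 4 arm (Poisson interval 101 to 131) and 80.5 per Mb on the chromosome 2 arm (68.5 to 93.9). In the outer 2 Mb of the other 8 chromosome ends it ran from 43 to 67 per Mb, with a median of 53.5, and over the whole nuclear genome it was 49.8 per Mb. By number of regions chromosome 4 was ahead, by 1.43 times. By sequence under regions chromosome 2 was ahead, with 84.3 kb on the chromosome 4 arm and 116 kb on the chromosome 2 arm. The other ends held 28.0 to 52.4 kb. On chromosome 2, 53271 bp of this lay in 15 neighbouring regions at the tip (995 to 55720), a stretch that holds the rRNA genes. How reads with several matches were placed there is not known. The excess of regions on chromosome 4 lay in its inner part: in the first 1.5 Mb the counts were 162 on chromosome 4 and 148 on chromosome 2.

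**Figure D1:**
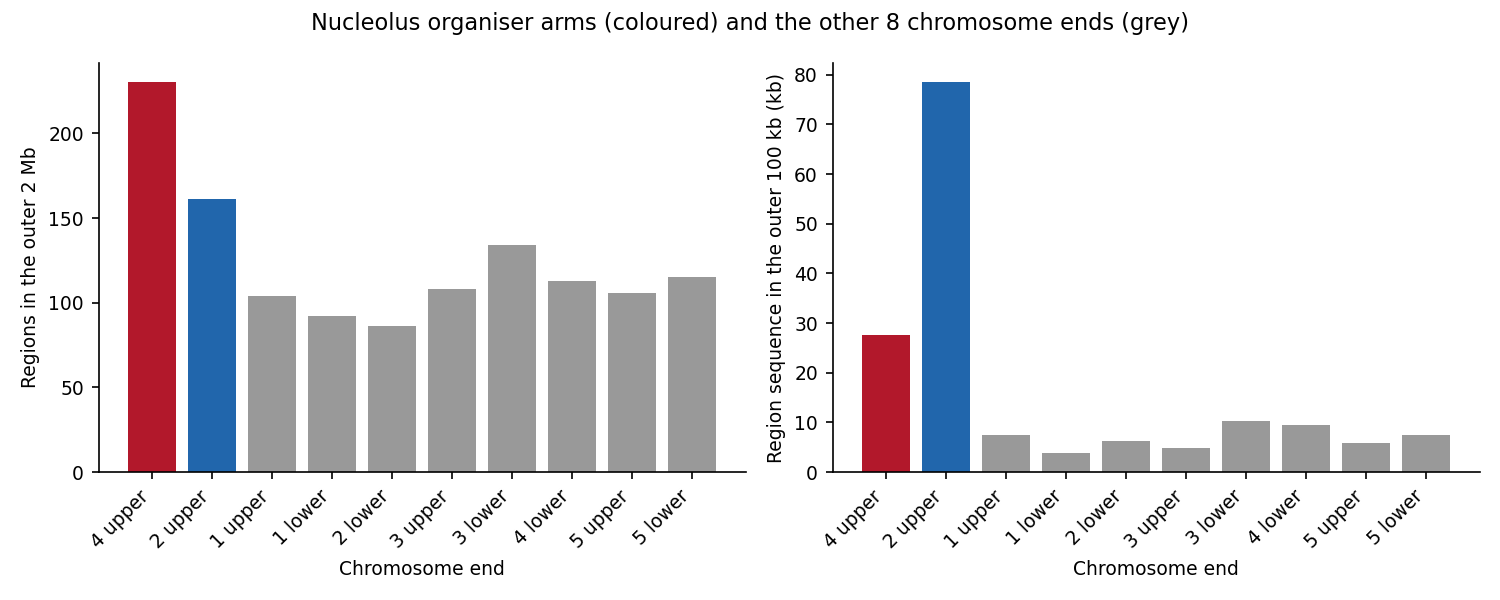
Number of LDL1:GFP regions in the outer 2 Mb (left) and kb of sequence under regions in the outer 100 kb (right) at each of the 10 chromosome ends, with the nucleolus organiser arms in colour and the others in grey. The arms of chromosomes 4 and 2 stand first in the left panel, with 230 and 161 regions, and chromosome 2 stands alone in the right panel with 78.5 kb.

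Regions thinned out steeply away from both tips. In the outermost 250 kb, 92 regions lay on chromosome 4 and 97 on chromosome 2, against 27 to 44 in the same stretch of the other 8 ends. The next 250 kb held 15 on chromosome 4 and 20 on chromosome 2. From there to 1.5 Mb each stretch of 250 kb held 10 to 16 regions on chromosome 4 and 5 to 13 on chromosome 2. The number of protein-coding genes changed much less: 72 and then 61 to 73 per 250 kb on chromosome 4 up to 1.5 Mb, and 57 and then 36 to 68 on chromosome 2.

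At finer scale the chromosome 4 arm was densest at the very tip. Its first 50 kb held 37 regions, the next 50 kb held 22, and the 3 that followed held 13, 10 and 10. On chromosome 2 the first 50 kb held 15 regions, of up to 13680 bp, and the following ones held 31, 23, 21 and 7. The outer 1 Mb held 60.4% of the regions of the chromosome 4 arm (139 of 230, interval 53.8 to 66.8%) and 83.9% of those of the chromosome 2 arm (135 of 161, interval 77.2 to 89.2%). The other 8 ends ran from 60.2 to 76.1% on this measure. Per protein-coding gene the arms parted: the outer 1 Mb of chromosome 4 held 0.509 regions per gene and its inner 1 Mb 0.514, while on chromosome 2 the outer 1 Mb held 0.577 and the inner 0.134. Leaving out the outermost 100 kb, the outer 1 Mb held 46.8% of chromosome 4 regions and 77.4% of chromosome 2 regions.

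**Figure D2:**
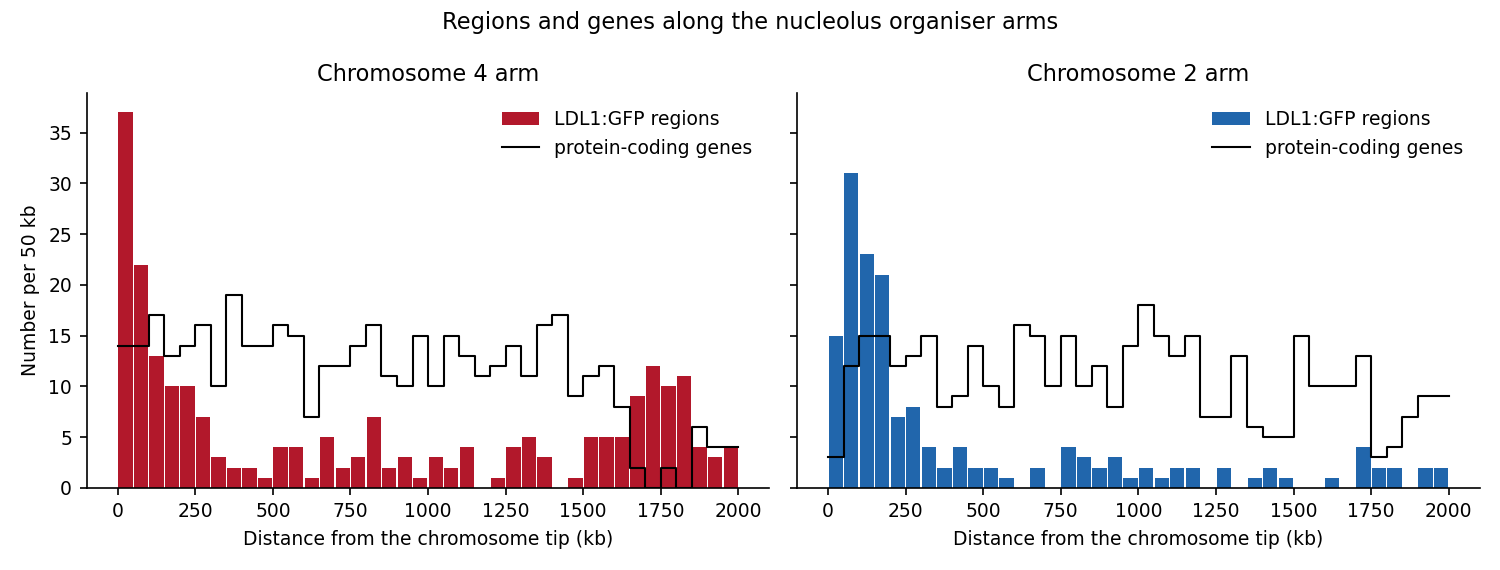
Number of LDL1:GFP regions (bars) and of protein-coding genes (black line) per 50 kb against distance from the chromosome tip in kb, for the arms of chromosome 4 (left) and chromosome 2 (right). Regions peak at both tips, at 37 in the first 50 kb of chromosome 4 and 31 in the next 50 kb of chromosome 2, and rise again on chromosome 4 between 1650 and 1850 kb, where genes are few.

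The tip of chromosome 2 was almost continuously occupied. Regions covered 95.1% of its first 50 kb and 61.8% of the next 50 kb, and the same stretches of chromosome 4 were covered to 39.8% and 15.3%. When regions under 500 bp apart were joined, the first 15 regions of chromosome 2 became a block of 54726 bp (chromosome 2: 995 to 55720), of which 97.3% was region. The longest such block on chromosome 4 measured 5944 bp (chromosome 4: 9981 to 15924) and was made of 6 regions. In the outer 100 kb chromosome 2 carried 78.5 kb of region, chromosome 4 carried 27.5 kb, and the other 8 ends carried 3.81 to 10.2 kb.

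The rRNA genes lay inside this block. AT2G01010, annotated as rRNA and 1808 bp long, and AT2G01020, annotated as rRNA and 164 bp long, were both covered over 100% of their length by a region of 10575 bp (chromosome 2: 995 to 11569). All 4 nuclear rRNA genes of the table (100%) were overlapped by a region, so this holds beyond the arm. The same region took in the 3 protein-coding genes nearest the tip, AT2G01008, AT2G01021 (102 bp long) and AT2G01023 (120 bp long), and the microRNA locus MIR5642b. A run of pseudogenes began at the end of this region. In the outer 250 kb of chromosome 2, 9 of 11 pseudogenes were overlapped by a region, and those 9 were covered over 66.1 to 100% of their length. Over all nuclear pseudogenes 21.0% were overlapped. AT2G01029, the longest of the run at 10188 bp, was covered over 95.9%, AT2G01026 over 99.2%, and AT2G01024, AT2G01028, AT2G01034 and AT2G01037 over 100%. rRNA genes exist in many near-identical copies, and how reads with several matches were placed is not given in the sources used here, so which copy such reads came from cannot be told apart. The same limit holds for any pseudogene or protein-coding gene of this block with copies elsewhere. How much of the block is repeated was not tested.

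Wide regions gathered at the chromosome 2 tip. The 10 widest of that arm measured 1745 to 13680 bp, all lay in the outer 100 kb, and they held 50.2% of the region sequence of the arm. The widest of all, 13680 bp (chromosome 2: 42041 to 55720), covered pseudogene AT2G01034 and 2 protein-coding genes, AT2G01035 and AT2G01045, over 100% of their length. On chromosome 4 the 10 widest measured 888 to 1911 bp, 6 of them in the outer 100 kb, and held 15.2% of the region sequence. Regions above 1 kb numbered 8 on chromosome 4 (3.48%) and 16 on chromosome 2 (9.94%). At the other 8 ends they made up at most 1.49%, and in the series 5.48%. Over the whole arm, median width was 296 bp on chromosome 4 and 311 bp on chromosome 2, beside 300 bp in the series. In the outer 100 kb it was 356 bp on chromosome 4 and 538.5 bp on chromosome 2, and in the first 50 kb 391 bp on chromosome 4 and 1224 bp on chromosome 2.

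**Figure D3:**
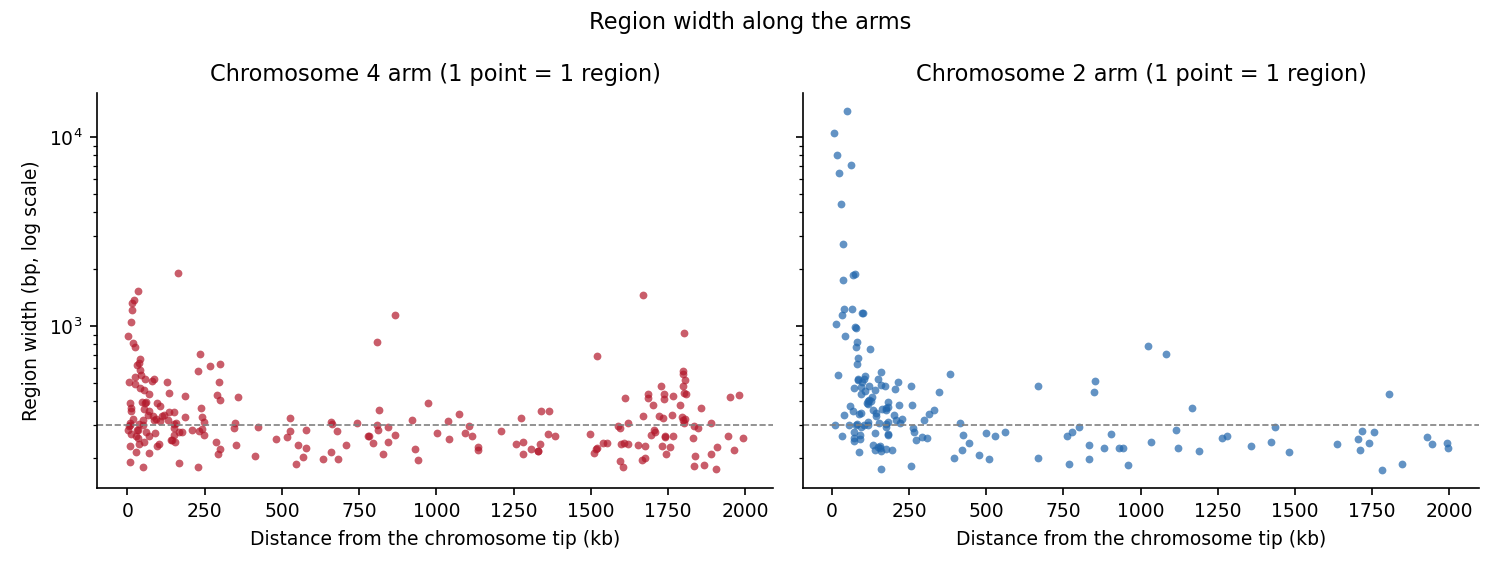
Width of each LDL1:GFP region in bp (log scale) against distance from the chromosome tip in kb, for the arms of chromosome 4 (left) and chromosome 2 (right), 1 point per region, with the median of the series (300 bp) as a dashed line. Widths reach 13680 bp at the chromosome 2 tip and 1911 bp on chromosome 4, and most points elsewhere lie near the line.

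The tip of chromosome 4 carried ordinary genes, and its regions were many. In the outer 100 kb their median width of 356 bp was below that of chromosome 2 (538.5 bp) and above that of the series (300 bp). The gene nearest the tip, AT4G00005, was covered over its whole length by a region of 888 bp (chromosome 4: 988 to 1875). Next to it lay BRCA2A, one of the plant homologues of the human recombination and DNA repair gene BRCA2. BRCA2A had 10 regions within 1 kb, the most of any gene on either arm, 9 of them on the gene itself, which together covered 39.2% of it. Shares of a gene's length count only bases under a region, while regions are counted over the gene and 1 kb on either side. SD3, a gene named for segregation distortion, had 5 regions over 61.4% of its length. Its neighbours AT4G00030 and AT4G00040 were covered over 78.1% and 89.3%, each by 1 of the 10 widest regions of the arm.

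Farther along the same tip, MEE44, named for arrest of the embryo, had 7 regions within 1 kb that covered 41.1% of the gene. AT4G00090 had 6, over 44.1%, and GAE3, an epimerase that makes UDP-galacturonate for pectin, had 5, over 58.2%. EDA34 also had 5, over 51.7%, with a smaller summed width than SD3 and GAE3. UNE11 was covered over 81.5% by the second widest region of the arm, of 1540 bp. UNE10, a bHLH transcription factor of the phytochrome-interacting family, had 3 regions and 44.5% of its length covered. The first 16 protein-coding genes from the tip each had a region within 1 kb. The first without was AT4G00155, centred 62.4 kb from the tip.

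The widest region of the chromosome 4 arm lay away from this cluster. It measured 1911 bp (chromosome 4: 160982 to 162892) and covered 80.3% of CYP86A2, a cytochrome P450 that hydroxylates fatty acids for the cuticle. It ended 4 bp from ANTR2, a phosphate transporter of the chloroplast, which had 2 further regions on its body. At 867 kb from the tip a region of 1150 bp and another together covered 67.3% of AT4G01985.

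On chromosome 2 the first 50 kb held 3 protein-coding genes and the next 50 kb held 12, and every one of these 15 had a region within 1 kb. The first 3 lie in the region that holds the rRNA genes. The limit on reads with several matches thus bears on all counts that include them. AT2G01050 was covered over 100% of its length. AT2G01060 had 4 regions over 71.9% and AT2G01070 had 3 over 85.1%. PDE345, the plastid fructose-bisphosphate aldolase FBA3, had 5 regions within 1 kb that covered 81.7% of it. AT2G01130 had 7, the most on this arm, over 23.6%. PDE331, AT2G01090 and AT2G01330 had 5 each, over 49.1%, 49.7% and 41.9%. The same count of 5, with smaller summed widths, was found at QSOX2 (34.7% covered), AT2G01400 (41.3%), AT2G01410 (63.5%) and the auxin carrier gene PIN4. The first 23 protein-coding genes from the tip each had a region within 1 kb, and the first without was AT2G01240, 128.7 kb from the tip. At the other end of the arms, the last gene before the boundary on chromosome 4, AT4G04110, lay 4844 bp from the nearest region, and GRP9 on chromosome 2, which encodes a glycine-rich protein, had 1 region of 239 bp.

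Over the 2 Mb, 159 of 450 protein-coding genes on chromosome 4 (35.3%, interval 30.9 to 39.9%) and 115 of 428 on chromosome 2 (26.9%, interval 22.7 to 31.3%) had a region on their body or within 1 kb. Of all 27444 nuclear protein-coding genes 12.2% did. The other 8 chromosome ends ran from 19.9 to 28.3%, so chromosome 2 fell within their range and chromosome 4 above it. With regions no narrower than the series median of 300 bp alone, the shares were 18.2% on chromosome 4 and 15.4% on chromosome 2. The 12.2% of all nuclear genes counts regions of any width, so it is not a background for these 2 shares. Counted on the gene body alone, the shares were 23.8% on chromosome 4 and 19.9% on chromosome 2, beside 7.68% of all nuclear protein-coding genes.

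The share was highest in the outer 250 kb, where 56 of 72 genes on chromosome 4 (77.8%) and 46 of 57 on chromosome 2 (80.7%) had a region. Among these genes 39 of the 56 on chromosome 4 and 30 of the 46 on chromosome 2 had more than 1 region. Between 250 kb and 1.5 Mb the shares were 24.9% on chromosome 4 and 21.4% on chromosome 2. In the last 500 kb they separated, with 21 of 49 genes on chromosome 4 (42.9%, interval 28.8 to 57.8%) and 9 of 90 on chromosome 2 (10.0%, interval 4.68 to 18.1%). Without the outer 100 kb the shares over the arm were 31.5% on chromosome 4 and 24.2% on chromosome 2. Since 79 regions on chromosome 4 and 56 on chromosome 2 lay within 1 kb of more than 1 protein-coding gene, neighbouring genes often share a region. Counted only for the nearest gene, the shares were 24.7% on chromosome 4 and 19.9% on chromosome 2, with no nuclear share counted this way to set beside them.

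**Figure D4:**
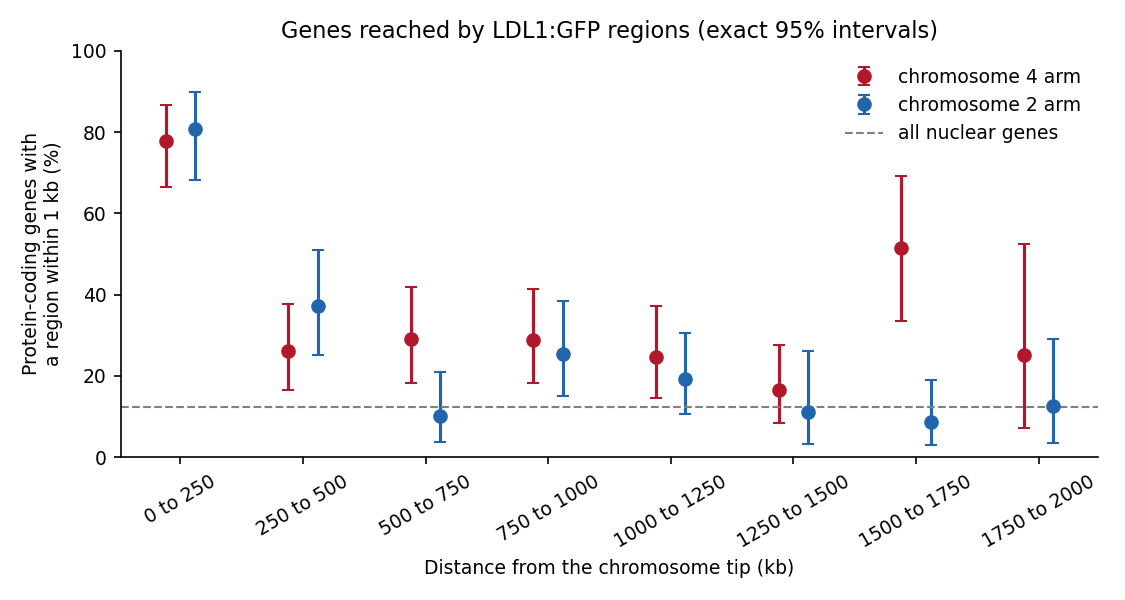
Percentage of protein-coding genes with an LDL1:GFP region within 1 kb, per 250 kb of distance from the chromosome tip, for the arms of chromosome 4 and chromosome 2, with exact 95% intervals. The dashed line is the share of all nuclear protein-coding genes (12.2%). The arms stand at 77.8% (chromosome 4) and 80.7% (chromosome 2) at the tip, and they lie farthest apart between 1500 and 1750 kb, at 51.5% and 8.62%.

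Among 34 known genes of these arms drawn from 3 functional groups, 13 had a region within 1 kb (38.2%), beside 31.2% of all protein-coding genes of the arms. Of the 7 that lie in the outer 250 kb, 5 had a region, and of the 27 farther in, 8 did. Among all protein-coding genes of both arms, 102 of 129 in the outer 250 kb had one (79.1%). Between 250 and 1500 kb from the tip this share was 23.3%, and between 1500 and 2000 kb it was 21.6%.

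In the hormone group 7 of 12 had a region (58.3%), beside 31.2% of all protein-coding genes of the arms. On the gene itself 5 of the 12 had one, beside 21.9% of all protein-coding genes of the arms. This list, like the others, was chosen with earlier results of these data known. The shares beside it are not matched for distance from the tip, and enrichment was not tested. PIN4, an auxin efflux carrier, had 5 regions on its body that covered 43.2% of it, the widest of 394 bp (chromosome 2: 182469 to 182862). IAA32, an auxin response repressor of the Aux/IAA family, had 4 within 1 kb, of which 2 lay on the gene. RGA, a DELLA repressor of gibberellin signalling, had 2 regions over 28.6% of its length, the widest of 484 bp (chromosome 2: 255511 to 255994). BRL2, a receptor-like kinase related to the brassinosteroid receptor, and MPK4, a MAP kinase of defence and hormone signalling, had 1 region each at the gene. ARR14, a cytokinin response regulator, lay 65 bp from a region of 359 bp. CUL1, the cullin of SCF ubiquitin ligases, lay 736 bp from its region. The nearest region was 13585 bp from the cytokinin receptor AHK4, 21751 bp from the cullin regulator CAND1, 22147 bp from the auxin receptor AFB1, 11933 bp from the gibberellin synthesis gene GA1 and 1864 bp from DFL2, a member of the GH3 family.

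In the group of flowering, light and plant form, 4 of 12 had a region (33.3%), beside 31.2% of all protein-coding genes of the arms. EID1, an F-box protein of phytochrome A signalling, was overlapped over 24.4% of its length by a region of 343 bp (chromosome 4: 1072586 to 1072928). MED12, a Mediator subunit, was overlapped over 2.69%. The region nearest to FRI, which raises FLC expression, was 614 bp wide and 376 bp away, and overlapped KEA2. PKS1, a phytochrome kinase substrate, lay 740 bp from a region that covers a U2 snRNA gene. YAB3, a regulator of leaf polarity, lay only 74.1 kb from the tip yet 1488 bp from the nearest region. LD, LOV1, EFM, SEP4, NGA4, ETC3 and NDX had none within 1 kb.

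Of the 10 genes of DNA replication, repair and chromatin, 2 had a region (20.0%), beside 31.2% of all protein-coding genes of the arms. Both lay within 100 kb of a tip. They were BRCA2A, described above, and ORC4 on chromosome 2, a subunit of the origin recognition complex, with 3 regions and 21.4% of its length covered. None lay within 1 kb of the Polycomb methyltransferase gene SWN, the mismatch repair genes MSH6 and PMS1, the replicative helicase gene MCM7, or PARP2, AL6, APC2 and MBD3. The nearest region to SWN was 18742 bp away, and to PMS1 3161 bp.

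Small RNA genes were covered unevenly by kind. Of the snRNA genes, which encode RNAs of the spliceosome, 2 of 3 on chromosome 4 and 2 of 2 on chromosome 2 were overlapped by a region, beside 22.0% of 82 nuclear snRNA genes. U2.9 and U5.7 on chromosome 4 lay wholly within regions of 358 bp (815197 to 815554) and 263 bp (1114416 to 1114678). U2.10 and U2.10b/12 on chromosome 2 lay wholly within regions of 448 bp (849639 to 850086) and 512 bp (852825 to 853336). U6.4, on chromosome 4, was 12281 bp from the nearest region. These 4 snRNA regions all lay 815 to 1115 kb from a tip, outside the dense stretch.

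For tRNA genes the counts were 3 of 9 on chromosome 4 and 2 of 7 on chromosome 2, beside 14.9% of 625 nuclear tRNA genes. Several of the wider regions contain one: the region of 1540 bp at 32935 to 34474 and that of 825 bp at 807912 to 808736 on chromosome 4, which hold AT4G00085 and AT4G01865, and that of 1170 bp at 101941 to 103110 on chromosome 2, which holds AT2G01160. None of the 8 snoRNA genes, all on chromosome 4, was overlapped, beside 1 of 287 (0.348%) in the nuclear genome. Among lncRNA genes 9 of 62 on chromosome 4 and 9 of 70 on chromosome 2 were overlapped, beside 4.97% of all nuclear lncRNA genes. Of those, 5 on each arm lay in the outer 250 kb, where each arm has 9 lncRNA genes.

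Where regions sat relative to genes changed with distance from the tip. In the outer 250 kb of chromosome 4, 84.8% of midpoints (78 of 92) lay inside a protein-coding gene, a class that makes up 66.6% of the sequence there, and 0 of 92 lay more than 1 kb from such a gene and outside every other annotated gene (interval up to 3.93%), a class with 7.54% of the sequence. In the outer 250 kb of chromosome 2, 64.9% (63 of 97) lay inside a protein-coding gene, beside 49.0% of sequence, and 12.4% inside a pseudogene, beside 16.7% of sequence. Between 250 kb and 1.5 Mb the share inside protein-coding genes was 64.3% on chromosome 4, beside 63.2% of sequence, and 56.9% on chromosome 2, beside 47.0% of sequence.

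Near gene ends the share on chromosome 4 was highest in the middle of the arm. Between 250 kb and 1.5 Mb, 42.9% of its midpoints (30 of 70, interval 31.1 to 55.3%) fell 250 bp or less from either end of a protein-coding gene, beside 21.8% of sequence. In its outer 250 kb the share was 20.7% (19 of 92, interval 12.9 to 30.4%), beside 23.9% of sequence, and from 1.5 to 2 Mb it was 10.3% (7 of 68), beside 8.84% of sequence. On chromosome 2 these shares were 27.5% between 250 kb and 1.5 Mb, beside 19.6% of sequence, and 23.7% in the outer 250 kb, beside 19.3% of sequence. From 1.5 to 2 Mb of chromosome 2 the share was 30.8% (4 of 13, interval 9.09 to 61.4%), beside 16.1% of sequence. The intervals of these chromosome 2 stretches overlap widely. Gene strand was not used here, so both ends count alike.

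**Figure D5:**
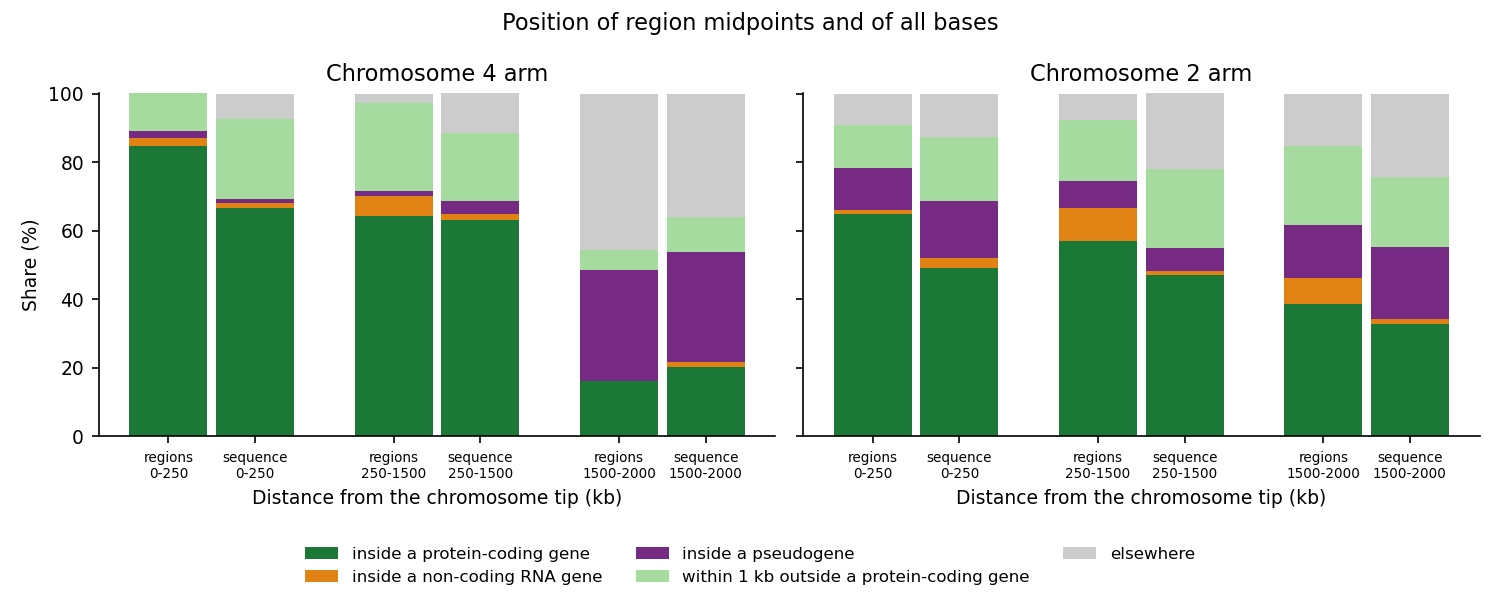
Share in percent of LDL1:GFP region midpoints (left bar of each pair) and of all bases (right bar) in 5 position classes, at 0 to 250, 250 to 1500 and 1500 to 2000 kb from the tip, for the arms of chromosome 4 (left panel) and chromosome 2 (right panel). Protein-coding genes hold 84.8% of midpoints at the chromosome 4 tip, beside 66.6% of bases, and 16.2% in its inner part, beside 20.2% of bases. Pseudogenes and the class named elsewhere (outside every annotated gene and over 1 kb from a protein-coding one) hold most midpoints and bases of that inner part.

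Regions also lay close together at the tips. A neighbour under 500 bp away was found for 50 of 92 regions in the outer 250 kb of chromosome 4 and for 61 of 97 on chromosome 2. Farther in, this held for 33 of 138 regions on chromosome 4 and 6 of 64 on chromosome 2. The longest stretch of arm without any region measured 112.7 kb on chromosome 4 (1382740 to 1495402) and 154.7 kb on chromosome 2 (1481090 to 1635824). The longest run of successive protein-coding genes with no region within 1 kb counted 33 genes on chromosome 4 and 46 on chromosome 2.

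The inner part of the chromosome 4 arm, from 1.5 to 2 Mb, was rich in regions again. It held 68, or 136 per Mb (Poisson interval 106 to 172), whereas the same part of chromosome 2 held 13, or 26 per Mb (13.8 to 44.5). The other 8 ends held 9 to 26 regions at this distance. Between 250 kb and 1.5 Mb of its own arm, chromosome 4 held 56 regions per Mb. Of the 68, 42 fell between 1650 and 1850 kb, at 210 per Mb (151 to 284), a stretch with 4 protein-coding genes and 35 pseudogenes that was picked after its counts were seen. From 2 to 2.5 Mb density was back at 52 per Mb on chromosome 4, and on chromosome 2 it was 144 per Mb.

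These inner regions lay in sequence annotated otherwise than the tip. For each class, the interval of their share included the share of sequence there. Of the 68, 31 (45.6%, interval 33.5 to 58.1%) lay outside every annotated gene and over 1 kb from any protein-coding one and 22 (32.4%) inside a pseudogene, beside 36.0% and 32.1% of sequence in these classes, and 11 (16.2%) lay inside a protein-coding gene, beside 20.2% of sequence. Their median width was 288.5 bp and 1 exceeded 1 kb, a region of 1468 bp (chromosome 4: 1667834 to 1669301) over pseudogene AT4G03750. Pseudogenes were overlapped in 20 of 73 cases in this inner part, and in 2 of 51 on chromosome 2, beside the 21.0% of all nuclear pseudogenes given above.

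Of the inner pseudogenes, 2 were covered over most of their length, AT4G03750 over 66.1% and AT4G03840 over 67.3%, and the next most covered over 22.3%. AT4G03840 had 7 regions within 1 kb, 5 of them on its body, which lay along its 3998 bp, the widest of 918 bp (chromosome 4: 1800232 to 1801149). Between 1800 and 1850 kb, where no protein-coding gene is annotated, lay 11 regions, which include some of those just counted for AT4G03840. From 1700 to 1750 kb, also without a protein-coding gene and with 1 pseudogene, there were 12 regions. Protein-coding genes were reached mainly between 1500 and 1650 kb, where the counts per 50 kb were 3 of 11, 6 of 12 and 7 of 8. Of those, EMB2770, a gene needed by the embryo, had 3 regions within 1 kb, including 1 of 694 bp that holds tRNA gene AT4G03435, and TPC1, the slow cation channel of the vacuole, lay 734 bp from a region. EMB2770 and TPC1 were named after their values were seen, as was AT4G03840.

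Input intervals, which carry no depth, covered nearly all of both arms. They took in 98.5% of the first 2 Mb of chromosome 4 and 98.2% of that of chromosome 2, beside 98.5% of all nuclear sequence. In the outer 100 kb they took in 97.8% on chromosome 4 and 98.0% on chromosome 2. Every region was covered over at least 88% of its length, and 82.2% of regions on chromosome 4 and 78.3% on chromosome 2 were covered wholly. In the outer 100 kb these shares were 66.1% on chromosome 4 and 52.2% on chromosome 2. Input intervals were themselves wider in the outer 100 kb of chromosome 2, with a median of 892 bp, beside 518 bp on the rest of that arm. On chromosome 4 these medians were 514 bp and 584 bp. Whether the tips had more input reads per base than other sequence was not tested.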

How the data were processed

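The authors deposited, for each group, region coordinates (chromosome, start and end) with no score or count. Set names gave the group, ChIP or input. Per the submitters' processing notes, the tools were Bowtie and SICER and the build TAIR10, with no versions or roles. Not given in the sources used here: the threshold, the handling of reads with several matches and how the 2 ChIP libraries were combined.

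Coordinates are 1-based on TAIR10. Gene names and biotypes came from a RefSeq table for TAIR10.1 (37899 nuclear genes). All 34 list members were found. It was taken to share nuclear coordinates with TAIR10: last genes end within 3 kb of the last input base on each chromosome. Strand and genome sequence were not used, so the planned counts at gene starts became counts at either end, and promoter motifs were not searched. Midpoints were classed in order as inside a protein-coding gene, a non-coding RNA gene or a pseudogene (transcribed ones included), within 1 kb outside a protein-coding gene, or elsewhere. Genes are placed by midpoint. A gene counts as reached when a region overlaps it or its 1 kb flanks by 1 bp.

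Members, lists and alternatives were chosen with earlier results of these data known. Named are the rRNA genes, protein-coding genes at the 10 widest regions per arm, the 5 genes per arm with most regions (ties by summed region width), list members, and genes next to tip and boundary, with tied genes, pseudogenes and small RNA genes added after their values were seen. Overlap steps were checked on simulated data with known answers. Overlaps were computed in Python 3.11.15 with pandas 2.3.3 and numpy 2.4.6, intervals with scipy 1.17.1 and plots with matplotlib 3.10.9.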

Additional observations from a re-analysis of the deposited data

How the results depend on the processing

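Of 65 alternatives to 14 values, 32 stayed within the exact interval of the value as reported, 30 moved beyond it and 3 changed direction. The cause of the moves was not tested. The chromosome 4 share of the regions of both arms (58.8%) became 52.3% over the first 1.5 Mb, 52.4% over the first 2.5 Mb and 42.0% by region bases. The share of chromosome 4 regions in the outer 1 Mb (60.4%) became 67.9% among regions no narrower than the series median (wider regions), 85.8% of the first 1.5 Mb and 46.8% without the outer 100 kb. With regions per protein-coding gene in place of regions (0.509 in the outer and 0.514 in the inner 1 Mb), the outer part was 49.8% of the sum. This small difference is 1 of the 3 changes of direction. On chromosome 2 the share in the outer 1 Mb (83.9%) became 95.5% with wider regions, 93.5% by bases, 76.8% with neighbours joined, 91.2% of 1.5 Mb and 57.9% of 2.5 Mb. On either arm a shorter whole can only raise this share and a longer one only lower it.

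The share of genes reached on chromosome 4 (35.3%) became 23.8% with gene bodies alone, 30.7% with a flank of 500 bp, 41.3% with 2 kb, 18.2% with wider regions and 24.7% by nearest gene. On chromosome 2 (26.9%) it became 19.9% with bodies alone, 33.6% with 2 kb, 15.4% with wider regions and 19.9% by nearest gene. Midpoints inside protein-coding genes on chromosome 4 (58.3%) became 37.0% with flanks first, 65.2% by any overlap and 48.5% without the outer 100 kb, and on chromosome 2 (60.2%) 35.4% with flanks first and 72.7% by any overlap. The chromosome 4 share of inner regions (84.0%) became 96.9% with wider regions. Protein-coding genes make up 52.9% of the arm sequence on chromosome 4 and 43.7% on chromosome 2. Regions within 500 bp of a gene end made up 43.9% on chromosome 4 and 43.5% on chromosome 2, beside 34.1% of the sequence on either arm. Input covered 50% or more of the length of 100% of regions on either arm, and wholly covered 87.7% on chromosome 4 and 88.7% on chromosome 2 without the outer 100 kb. The motif search was not run. The alternatives without the outer 100 kb and the count by bases for both arms together were chosen after seeing the data.

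No paired analysis was possible because the ChIP libraries are given as a single set of regions. For the same reason no replicate was left out, and the spread between libraries is unknown.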
